A study of Homo sapiens with 15 samples.

Results

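The inflammatory CC chemokines CCL1, CCL2, CCL3, CCL4, CCL5, CCL7, CCL8, CCL20 and CCL24 were followed as transcripts in THP-1 cells stimulated with bacterial extracellular vesicles (BEVs). The 9 genes were chosen by symbol from the 60286 genes of the count table. All 9 passed the filter on low counts, which left 17198 genes to be tested. The near-identical copies CCL3L3 and CCL4L2 were left out of the set, and their values are given beside CCL3 and CCL4.

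THP-1 is a human monocytic leukemia cell line, and a single wild-type line served for every library. RNA was sequenced in 15 libraries, with 3 in each of 5 groups. Non-stimulated cells (NC) were given PBS. *E. coli* BEVs were added at 1 μg/mL of protein to the EUC and EPL groups, isolated by ultracentrifugation (UC) or by precipitation with epsilon-poly-L-lysine (PL). *S. aureus* BEVs, isolated in the same ways, were added at 10 μg/mL to the SUC and SPL groups, so the species and the dose cannot be told apart. The incubation lasted 6 h by the study's methods, whereas the labels give Day 0. The labels speak of triplicates and do not name separate cultures, so p-values measure the spread between these libraries, which may be technical.

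Chemokines are small secreted proteins that guide leukocytes along a gradient by binding G protein-coupled receptors on them. The CC family carries adjacent cysteines near its amino terminus, and monocytes and macrophages are a major source of its inflammatory members. Many of these genes are switched on through NF-kappa B when a cell senses bacterial products. CCL2, CCL7 and CCL8 attract monocytes, mainly through CCR2. CCL3, CCL4 and CCL5 draw monocytes and T cells, CCL20 binds CCR6, CCL1 binds CCR8 and CCL24 binds CCR3.

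On hg38, with the gene models of GENCODE 44, 7 of the 9 genes lay on chromosome 17. CCL2 (ENSG00000108691) spans chr17:34255274-34257208, CCL7 (ENSG00000108688) chr17:34270221-34272242 and CCL8 (ENSG00000108700) chr17:34319435-34321402, all on the plus strand. CCL1 (ENSG00000108702) lies beyond them on the minus strand at chr17:34360328-34363233. CCL5 (ENSG00000271503) at chr17:35871491-35880793 and CCL3 (ENSG00000277632) at chr17:36088256-36090169 are on the minus strand, and CCL4 (ENSG00000275302) at chr17:36103827-36105621 is on the plus strand. CCL20 (ENSG00000115009) spans chr2:227805739-227817564 on the plus strand, and CCL24 (ENSG00000106178) spans chr7:75810825-75823356 on the minus strand.

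RefSeq promoters on GRCh38.p14 were matched for 6 of the 9 genes, with no entry used for CCL2, CCL4 and CCL5. The stretches of 100 bases below are shown because each holds a motif that is known from inducible genes. Each stretch ends 1 base before the annotated start, except that of CCL1, which covers positions -220 to -121 relative to it. Capitals mark a kappa B consensus match in CCL1 and CCL20, an AP-1 match (TGANTCA) in CCL7 and the TATA box (TATAAA) in CCL3, CCL7, CCL8 and CCL20.
CCL7, chr17:34270121-34270220, plus strand: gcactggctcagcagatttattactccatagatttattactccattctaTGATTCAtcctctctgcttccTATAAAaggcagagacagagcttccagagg
CCL8, chr17:34319335-34319434, plus strand: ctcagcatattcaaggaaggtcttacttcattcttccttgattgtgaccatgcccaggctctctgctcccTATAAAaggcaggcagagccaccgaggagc
CCL3, chr17:36090144-36090243, minus strand: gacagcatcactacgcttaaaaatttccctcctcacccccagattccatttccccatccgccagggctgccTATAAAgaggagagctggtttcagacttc
CCL20, chr2:227813742-227813841, plus strand: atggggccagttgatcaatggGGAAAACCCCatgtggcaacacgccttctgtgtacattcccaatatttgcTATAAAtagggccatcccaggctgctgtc
CCL1, chr17:34363354-34363453, minus strand: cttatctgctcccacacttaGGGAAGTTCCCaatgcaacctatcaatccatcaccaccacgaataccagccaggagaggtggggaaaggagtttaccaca

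Over 35116 RefSeq promoters of the same length, the kappa B consensus of 10 letters was found in 11.3%, the AP-1 motif in 7.71% and the TATA box in 7.33%. The first pair of motifs was searched on both strands and the TATA box on the gene's strand. In CCL1 the capitals cover a match on each strand that overlap by all but 1 base. CCL24 held the AP-1 motif in both of its promoter entries, 13 to 7 and 142 to 136 bases before the start. CCL7 and CCL8 shared a run of 14 bases around the TATA box, cctataaaaggcag, which was the longest run shared by any pair of these stretches. The CCL20 stretch lies inside the gene's GENCODE span, which begins upstream of it at chr2:227805739. These matches describe letters only, and no binding was measured.

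Between 14399421 and 16637345 reads were counted on genes per library. The 10 monocytic markers, among them CD33, CSF1R and SPI1, summed to 1190 to 1234 CPM (counts scaled to the TMM-normalized library size) in NC and to 1654 to 2249 CPM in stimulated cells. Among them SPI1, a myeloid transcription factor, went from 471 ± 15.9 CPM in NC to between 960 ± 107 in SUC and 1198 ± 171 in EUC (SD, n = 3). CD33 went from 82.8 ± 2.5 CPM in NC to 50.1 ± 2.31 in EUC and was not called, and the median log2 fold change of the tested markers lay between -0.0386 and 0.0273 in the 4 groups. CD68 stood apart at no more than 5 counts in any group. The 17 markers of T, B, NK, epithelial, fibroblast, endothelial and erythroid cells summed to 14.1 to 21.5 CPM, and between 6 and 9 of them were at 0 in each group. Of these 17, COL1A1 and DCN rose in all 4 stimulated groups, to at most 4.52 ± 0.516 and 1.52 ± 0.416 CPM (SD, n = 3), while COL1A2, CD3D, HBA1 and HBB had 0 or 1 count in every group. Their part in the chemokine changes was not tested.

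All 9 chemokines rose in all 4 stimulated groups. A gene was called when the quasi-likelihood test of edgeR gave a Benjamini-Hochberg adjusted p of 0.01 or less over all tested genes and the difference reached 2-fold. By this rule 9.43% of tested genes were called higher in EUC than in NC, 9.38% in EPL, 6.82% in SUC and 7.76% in SPL. The median log2 fold change of the 9 was 7.41 in EUC and 7.10 in EPL, against 5.79 in SUC and 6.16 in SPL, while the all-gene medians lay between -0.007 and 0.007. In EPL, SUC and SPL the median was the value of CCL7, which rests on 1 count in NC, so the gap between these medians is uncertain. Compared directly, *E. coli* with *S. aureus* BEVs over both isolation methods, the median log2 difference of the 9 was 0.761. Their reads made up 0.00569% to 0.00619% of the counts on genes in NC libraries and 0.0492% to 0.101% in stimulated libraries. Every stimulated library lay above every NC library for each of the 9 genes. The share of all tested genes for which this held was not counted, so it does not set the 9 apart. In either direction, from 6945 genes in SUC to 8269 in EUC, of 17198 tested, had an unadjusted p of at most 0.05 against NC by edgeR. In bulk RNA, more cells making a transcript and more transcript per cell cannot be told apart.

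**Figure D1:**
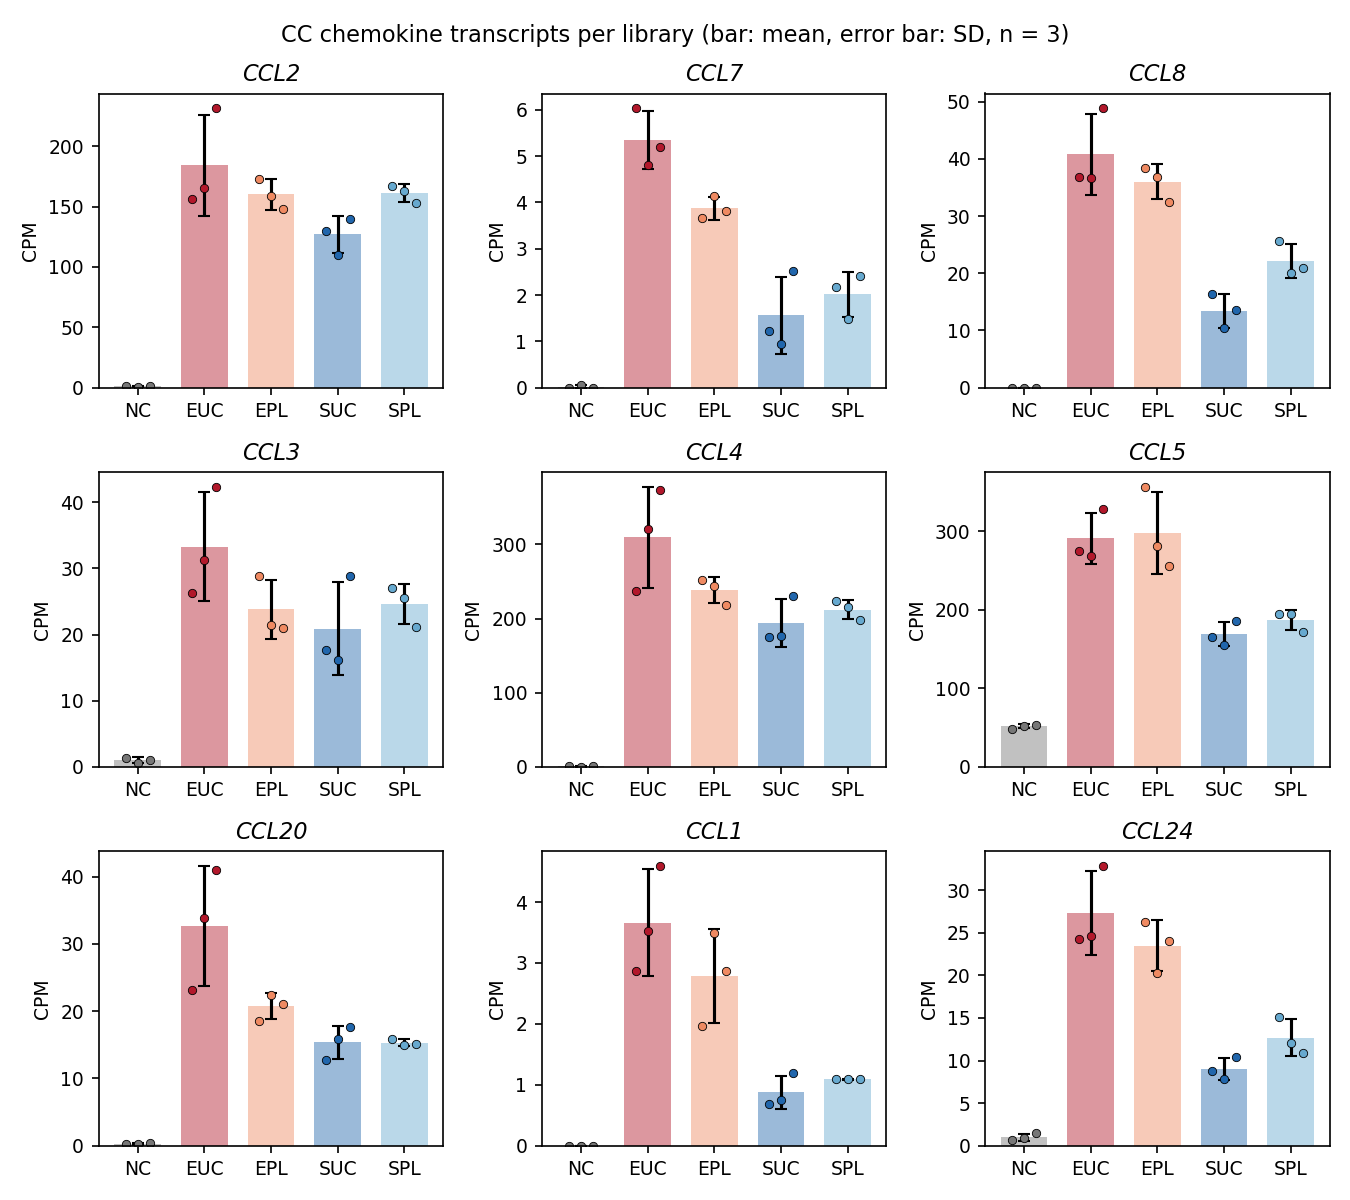
CPM of each chemokine (vertical axis, linear, its own scale per gene) in the 5 groups, with a point for each library, a bar for the mean and an error bar for the SD of 3 libraries. CCL5 is the only gene with a clearly visible bar in NC, at 51.2 CPM, and the *E. coli* groups stand highest for most genes.

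Among the monocyte attractants, CCL2, the main ligand of CCR2, went from near 1 CPM to more than 100. It stood at 1.22, 0.765 and 1.25 CPM in NC, at 156, 165 and 232 in EUC, at 173, 159 and 148 in EPL, at 130, 110 and 140 in SUC and at 167, 163 and 153 in SPL. The 4 stimulated groups lay close together, and SPL did not overlap SUC. The rise was 7.41 ± 0.207 on the log2 scale (SE) in EUC and 7.21 ± 0.206 in EPL, against 6.87 ± 0.206 in SUC and 7.22 ± 0.206 in SPL, with an adjusted p of at most 8.95e-14 by edgeR's quasi-likelihood test.

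CCL8, which binds CCR2 and further CC receptors, had no count in any NC library. It reached 36.8, 36.6 and 49.0 CPM in EUC, 38.4, 36.9 and 32.5 in EPL, 16.3, 10.4 and 13.5 in SUC and 25.6, 20.1 and 21.0 in SPL. The 3 ranges of EPL and EUC together, SPL, and SUC were separate. Set against a floor of 3 counts over the 3 NC libraries, CCL8 was at least 671-fold higher in EUC and 591-fold in EPL, against 219-fold in SUC and 367-fold in SPL. These limits cover the counting error of the NC count only, since the stimulated counts were taken as exact. Adjusted p by edgeR's quasi-likelihood test was at most 3.54e-10.

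CCL7, a ligand of CCR1, CCR2 and CCR3, had 1 count over the 3 NC libraries. It stood at 6.05, 4.81 and 5.19 CPM in EUC, 3.67, 4.14 and 3.81 in EPL, 1.23, 0.937 and 2.51 in SUC and 2.17, 1.48 and 2.41 in SPL, from 15 to 93 counts per library. The groups with *E. coli* BEVs lay above those with *S. aureus* BEVs without overlap. The 1 count was in NC replicate 2, and the ratios to NC rest on it. The ratio of normalized counts to NC was 264 in EUC with a 95% exact binomial interval of 47.0 to 10475, 192 (33.9 to 7605) in EPL, 76.6 (13.3 to 3068) in SUC and 99.5 (17.4 to 3971) in SPL, intervals that cover counting error only. Without NC replicate 2 the fitted log2 fold change of CCL7 in EUC went from 7.57 to 9.37 and that in SUC from 5.79 to 7.60, values that then depend on the prior count and are no bounds. Its rise had an adjusted p of at most 4.56e-06 in each group by edgeR's quasi-likelihood test.

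The group of CCL3, CCL4 and CCL5 included the transcript with the smallest rise of the 9. CCL5, which also binds CCR1 and draws T cells and monocytes, was already detected with 759 to 900 counts per library without stimulation. It stood at 48.6, 51.3 and 53.7 CPM in NC, 275, 269 and 328 in EUC, 357, 281 and 256 in EPL, 165, 155 and 185 in SUC and 194, 194 and 172 in SPL. The *E. coli* groups overlapped each other and lay above both *S. aureus* groups. The log2 fold change was 2.51 ± 0.123 in EUC and 2.54 ± 0.123 in EPL, against 1.72 ± 0.121 in SUC and 1.87 ± 0.121 in SPL, the smallest of the 9 in each group.

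CCL4 (MIP-1 beta), by contrast, was at 0.448, 0.176 and 0.298 CPM in NC. It reached 237, 321 and 373 CPM in EUC, 252, 244 and 218 in EPL, 175, 176 and 231 in SUC and 223, 215 and 198 in SPL. All 4 stimulated groups overlapped at least 1 other. Its rise was 9.96 ± 0.260 on the log2 scale in EUC and 9.58 ± 0.259 in EPL, against 9.28 ± 0.259 in SUC and 9.41 ± 0.259 in SPL, from 15 counts over the NC libraries.

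CCL3 (MIP-1 alpha), a ligand of CCR1, stood at 1.34, 0.529 and 1.07 CPM in NC. In stimulated cells it read 26.3, 31.3 and 42.4 CPM in EUC, 28.9, 21.5 and 21.0 in EPL, 17.7, 16.1 and 28.9 in SUC and 27.0, 25.5 and 21.2 in SPL. SUC replicate 3 equalled the highest EPL library at this precision. The log2 fold change was 5.09 ± 0.315 in EUC and 4.60 ± 0.319 in EPL, against 4.41 ± 0.321 in SUC and 4.65 ± 0.319 in SPL.

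The values of CCL3 and CCL4 are uncertain, because reads could be split between them and their copies on the same chromosome. CCL3 held 13.4% to 17.9% of the counts of CCL3 and CCL3L3 in stimulated libraries, and CCL4 held 58.1% to 63.2% of the counts of CCL4 and CCL4L2. The copies rose as well. CCL3L3 went from 3.58 ± 0.685 CPM in NC to 173 ± 45.6 in EUC and 138 ± 14.1 in EPL, against 115 ± 24.5 in SUC and 123 ± 12.9 in SPL (SD, n = 3). CCL4L2 had 4 counts over the NC libraries and reached 213 ± 55.5 CPM in EUC and 161 ± 9.19 in EPL, against 125 ± 23.4 in SUC and 134 ± 15.1 in SPL. Summed with their copies, the pairs stood at 4.56 and 0.39 CPM in NC and at 206 and 523 CPM in EUC. CCL3 also shares 1115 exon bases with CCL3-AS1 on the other strand, which had 0 counts in the table.

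CCL20, which brings in CCR6-bearing dendritic cells and T cells, stood at 0.192, 0.235 and 0.417 CPM in NC. It reached 23.2, 33.8 and 41.0 CPM in EUC, 18.6, 22.4 and 21.1 in EPL, 12.7, 15.8 and 17.6 in SUC and 15.9, 14.9 and 15.1 in SPL. EPL lay below EUC and above both *S. aureus* groups without overlap. The rise was 6.81 ± 0.289 on the log2 scale in EUC and 6.15 ± 0.297 in EPL, against 5.72 ± 0.305 in SUC and 5.72 ± 0.305 in SPL.

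CCL1, a ligand of CCR8, had no count in NC and was the scarcest of the 9 in counts after stimulation. It reached 2.86, 3.52 and 4.60 CPM in EUC, 1.97, 3.50 and 2.87 in EPL, 0.683, 0.750 and 1.19 in SUC and 1.09, 1.09 and 1.10 in SPL, from 10 to 70 counts per library. Against the floor of 3 counts over NC it was at least 60.2-fold higher in EUC and 45.9-fold in EPL, against 14.4-fold in SUC and 18.0-fold in SPL. These limits too take the stimulated counts as exact, and those of CCL1 were low. Adjusted p by edgeR's quasi-likelihood test was at most 1.97e-05.

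CCL24 (eotaxin-2), which attracts eosinophils through CCR3, stood at 0.640, 0.941 and 1.43 CPM in NC. It reached 24.3, 24.6 and 32.9 CPM in EUC, 26.3, 20.3 and 24.0 in EPL, 8.81, 7.87 and 10.4 in SUC and 15.1, 12.1 and 10.9 in SPL. The *E. coli* groups overlapped each other, and SPL lay above SUC. Its log2 fold change was 4.74 ± 0.233 in EUC and 4.53 ± 0.234 in EPL, against 3.15 ± 0.25 in SUC and 3.64 ± 0.243 in SPL.

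Levels of different genes were compared per length, as RPKM over the union of GENCODE exons, with the copies of CCL3 and CCL4 left out. In NC, CCL5 at 37.5 RPKM made up 94.3% of the summed RPKM of the 9, and CCL24 (0.689), CCL3 (0.657) and CCL2 (0.557) followed with overlapping libraries from CCL24 through CCL2. CCL20 (0.177 RPKM) and CCL4 (0.171 RPKM) overlapped each other below them. After EUC the order was CCL5 (213 RPKM), CCL4 (173), CCL2 (95.3), CCL8 (47.3), CCL3 (22.3), CCL20 (20.5), CCL24 (18.7), CCL7 (6.20) and CCL1 (6.17). There CCL5 overlapped CCL4, CCL3 overlapped CCL20, CCL20 overlapped CCL24, and CCL7 overlapped CCL1.

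CCL5, CCL4 and CCL2 kept the first 3 ranks in all 4 stimulated groups, with the copies left out. Summed with its copy, CCL4 averaged 523 CPM in EUC and 319 in SUC, against 291 and 169 for CCL5. CCL3 with its copy averaged 206 CPM in EUC and 147 in SPL, against 184 and 161 for CCL2. These CPM are not scaled to length, and the exon union is 1494 bases in CCL3 and 1935 in CCL2, so they give no order per length. The order per length may thus depend on how reads were assigned to the copies, and ranks with the copies were not computed. CCL5 libraries overlapped those of CCL4 in EUC and SUC and did not in EPL and SPL. CCL8 took rank 4 at 41.7 RPKM in EPL, 15.5 in SUC and 25.8 in SPL, and in SUC it overlapped CCL3 at 14 RPKM. The rank of CCL20 depended on its length, since its exon union of 1594 bases is longer than its longest transcript of 839 bases. With the shorter length CCL20 took rank 4 in SUC and rank 5 in EUC, EPL and SPL.

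**Figure D2:**
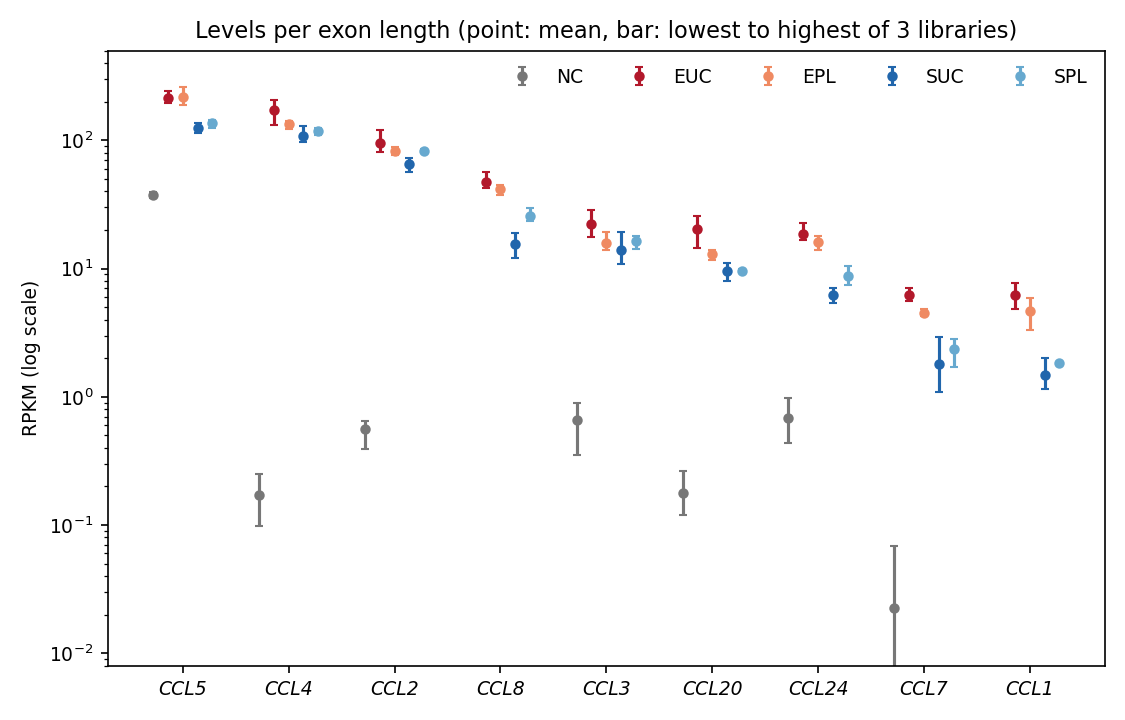
Mean RPKM of each chemokine (vertical axis, log scale) in the 5 groups, with bars from the lowest to the highest of 3 libraries. CCL8 and CCL1 had no count in NC and have no grey point, and the bar of CCL7 in NC runs off the axis because 2 libraries were at 0. CCL5 stands at 37.5 RPKM in NC, and CCL5, CCL4 and CCL2 lead after stimulation, with the copies of CCL3 and CCL4 left out.

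The balance within the set was described by ratios of levels per length. The ratio of CCL5 to CCL2 per length was 70.9 ± 21.1 in NC, 2.27 ± 0.249 in EUC and 2.63 ± 0.259 in EPL, against 1.89 ± 0.0954 in SUC and 1.65 ± 0.0450 in SPL (SD, n = 3). Between CCL2 and CCL8, the ratio was 2.0 ± 0.112 in EUC and 1.98 ± 0.0578 in EPL but 4.31 ± 0.660 in SUC and 3.25 ± 0.353 in SPL. The libraries of the *E. coli* groups, from 1.89 to 2.11, all lay below those of the *S. aureus* groups, from 2.91 to 4.73. The ratio of CCL4 to CCL5 was 0.00461 ± 0.00222 in NC and between 0.615 ± 0.0676 in EPL and 0.871 ± 0.0729 in SUC after stimulation. CCL4L2 was left out of this ratio.

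The design also asks whether BEVs of the 2 species, at their different doses, gave different chemokine levels. Averaged over the isolation methods, CCL1, CCL7, CCL24 and CCL8 were called higher with *E. coli* BEVs than with *S. aureus* BEVs, against 0.663% of all tested genes called higher. The log2 difference was 1.70 ± 0.218 for CCL1, 1.36 ± 0.210 for CCL7, 1.24 ± 0.122 for CCL24 and 1.15 ± 0.114 for CCL8, with adjusted p of 0.00015, 0.000435, 7.25e-06 and 1.59e-05 by edgeR's quasi-likelihood test. CCL20 at 0.76 ± 0.121 and CCL5 at 0.73 ± 0.082 passed the adjusted p (0.000571 and 2.24e-05) and fell short of the 2-fold threshold. Without a fold threshold 6 of the 9 were thus higher, against 2.87% of all genes. When the test itself was set against a 2-fold difference (glmTreat), 0 of the 9 were called, and of all genes 4 were called higher and 1 lower.

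These 6 genes were also the ones whose 6 libraries with *E. coli* BEVs all lay above the 6 with *S. aureus* BEVs, which held for 3.05% of tested genes. CCL4, CCL3 and CCL2 did not pass the adjusted p in the fit of all libraries with the filter on low counts. Their log2 differences were 0.42 (95% interval 0.21 to 0.64, adjusted p 0.0144), 0.31 (-0.02 to 0.64, adjusted p 0.326) and 0.27 (0.07 to 0.46, adjusted p 0.123) by the same edgeR fit. CCL4 passed it by DESeq2 (adjusted p 0.00245) and, by edgeR, with no filter on low counts (2.42e-06), without EUC replicate 1 (0.001) and without SUC replicate 3 (0.00339), at log2 differences of 0.41 to 0.50. The upper bounds of the 3 intervals lie below the 2-fold threshold. CCL7 and CCL8, near CCL2 on chromosome 17, had larger values, with 95% intervals of 0.91 to 1.80 and 0.91 to 1.39. The difference between these genes' differences was not tested.

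Within the UC groups, CCL1 (2.06 ± 0.310), CCL7 (1.78 ± 0.298), CCL8 (1.61 ± 0.165), CCL24 (1.60 ± 0.176) and CCL20 (1.09 ± 0.170) were called higher in EUC than in SUC on the log2 scale, against 0.733% of genes. Without a fold threshold CCL5 and CCL4 joined them, against 2.0%. In a fit of the 6 EUC and SUC libraries alone CCL24 kept its call, and the adjusted p of the other 4 lay between 0.0129 and 0.0527 by edgeR's quasi-likelihood test. Without SUC replicate 2 the call was kept by 3 genes, CCL8, CCL24 and CCL20, and the genes called higher in all went from 126 to 73. With glmTreat it was kept by 0, against 7 of all genes called higher.

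Within the PL groups the differences of EPL from SPL had smaller values for each of the 9, and the change between UC and PL is the method difference between the species, tested further on. No chemokine was called by edgeR or DESeq2, against 0.105% of genes called higher by edgeR. These were 18 genes, and leaving out any 1 of the 6 EPL and SPL libraries left between 3 and 11 called higher. At an unadjusted p of at most 0.05 by edgeR there were 6 of the 9 and 1447 of 17198 genes. After the filter on low counts, CCL5 alone passed the adjusted p of edgeR without a fold threshold, at 0.67 ± 0.116 (adjusted p 0.0079), against 0.291% of genes. Its adjusted p was 0.0122 with the replicate block and 0.0127 in a fit of these 6 libraries alone, and it ran from 0.00973 to 0.0876 as 1 of them was left out. With no filter, CCL24 (adjusted p 1.3e-06) and CCL8 (9.05e-05) passed by edgeR as well, under 2-fold. By DESeq2 CCL24 (adjusted p 0.000178) and CCL8 (adjusted p 0.00481) passed it too, under 2-fold. CCL1 at 1.34 (0.69 to 1.995), CCL7 at 0.94 (0.32 to 1.56) and CCL24 at 0.89 (0.53 to 1.25) had 95% intervals above 0 and adjusted p of 0.0522, 0.198 and 0.0165 by edgeR. CCL2 at -0.01 (-0.29 to 0.27) and CCL3 at -0.05 (-0.51 to 0.42) lay near 0.

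**Figure D3:**
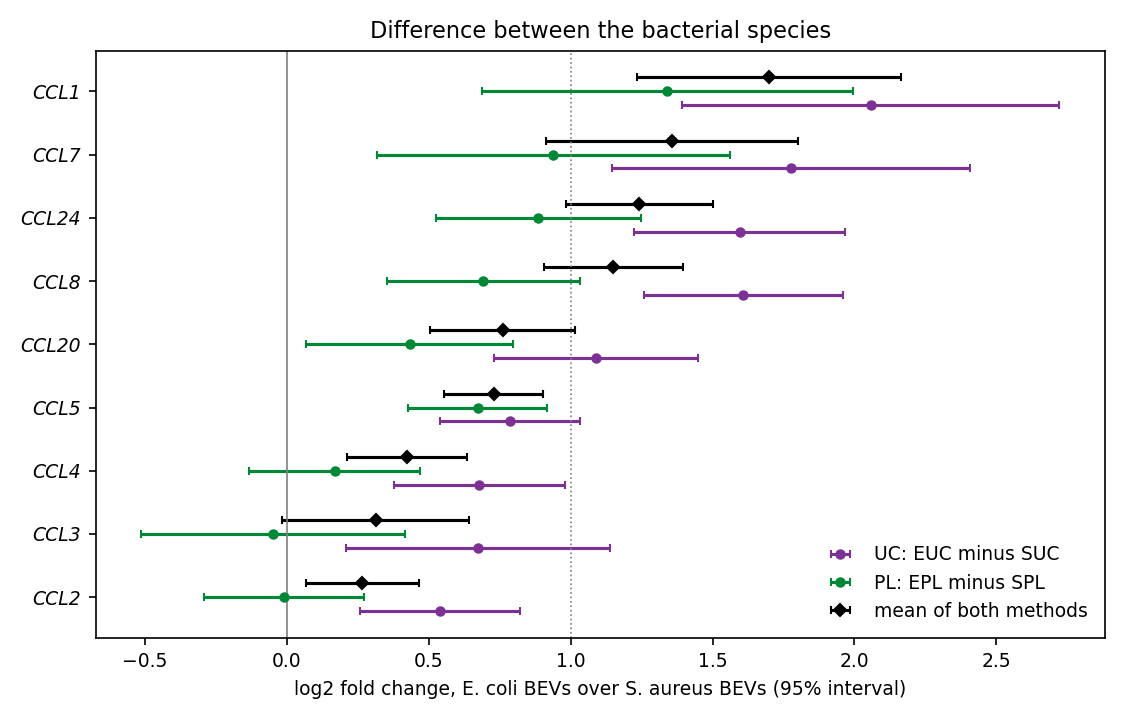
Log2 fold change of *E. coli* over *S. aureus* BEVs (horizontal axis) for each chemokine, with 95% intervals, for the UC groups, the PL groups and the mean of both methods. The solid line marks no difference and the dotted line a 2-fold difference. CCL1, CCL7, CCL24 and CCL8 have means beyond the dotted line, and CCL2 and CCL3 lie near 0 in the PL groups.

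The comparison of the isolation methods gave no called chemokine in either species. For EPL against EUC edgeR and DESeq2 called 0 of the 9, and edgeR called 0.0% of all genes. At an unadjusted p of at most 0.05 by edgeR there were 3 of the 9 and 604 of 17198 genes. CCL20 at -0.66 (95% interval -1.01 to -0.31), CCL3 at -0.49 (-0.95 to -0.03) and CCL4 at -0.38 (-0.68 to -0.08) were these 3, all lower in EPL, with adjusted p of 0.947. With no filter on low counts the adjusted p of CCL20 was 0.00777 by edgeR, at a difference still under 2-fold, and by DESeq2 it was 0.981. Without the filter edgeR's quasi-likelihood test gave far smaller adjusted p elsewhere too, such as 9.09e-240 against 6.78e-12 for CCL8 in EUC over NC. The other 6 had intervals that held 0, from CCL7 at -0.46 (-1.03 to 0.11) to CCL5 at 0.04 (-0.21 to 0.28). CCL7 and CCL20 libraries of EPL all lay below those of EUC, which held for 3.26% of genes.

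For SPL against SUC edgeR and DESeq2 again called 0 of the 9, and edgeR called 0.00581% of all genes in either direction. At an unadjusted p of at most 0.05 by edgeR there were 3 of the 9 and 1000 of 17198 genes. These were CCL8 at 0.74 (95% interval 0.38 to 1.09, adjusted p 0.667), CCL24 at 0.50 (0.12 to 0.88, adjusted p 0.814) and CCL2 at 0.34 (0.06 to 0.63, adjusted p 0.814), all higher in SPL. With no filter on low counts the adjusted p of CCL8 was 0.000457 by edgeR. In these same 3 genes the SPL libraries all lay above the SUC libraries, which held for 6.87% of genes. CCL20 at -0.0048 (-0.38 to 0.37) lay near 0. Apart from CCL8, CCL7 and CCL1, whose upper bounds were 1.09, 1.06 and 1.07, the intervals kept the difference below 2-fold.

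The method difference was then compared between the species, as SPL minus SUC less EPL minus EUC. By edgeR and by DESeq2 0 of the 9 were called, edgeR called 0.0% of all genes, and adjusted p was 1.0 for each of the 9. With no filter on low counts the adjusted p of CCL8 was 0.005 by edgeR, below 2-fold. The values ran from 0.11 for CCL5 to 0.92 for CCL8 on the log2 scale with a median of 0.71, against an all-gene median of -0.003. At an unadjusted p of at most 0.05 by edgeR there were 6 of the 9 and 659 of 17198 genes. The 9 values come from the same 12 libraries and are not independent. Within those libraries EUC replicate 3 and SUC replicate 3 were each the highest of their group in 8 of the 9 genes, SPL replicate 1 in 7 and EPL replicate 1 in 6.

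**Figure D4:**
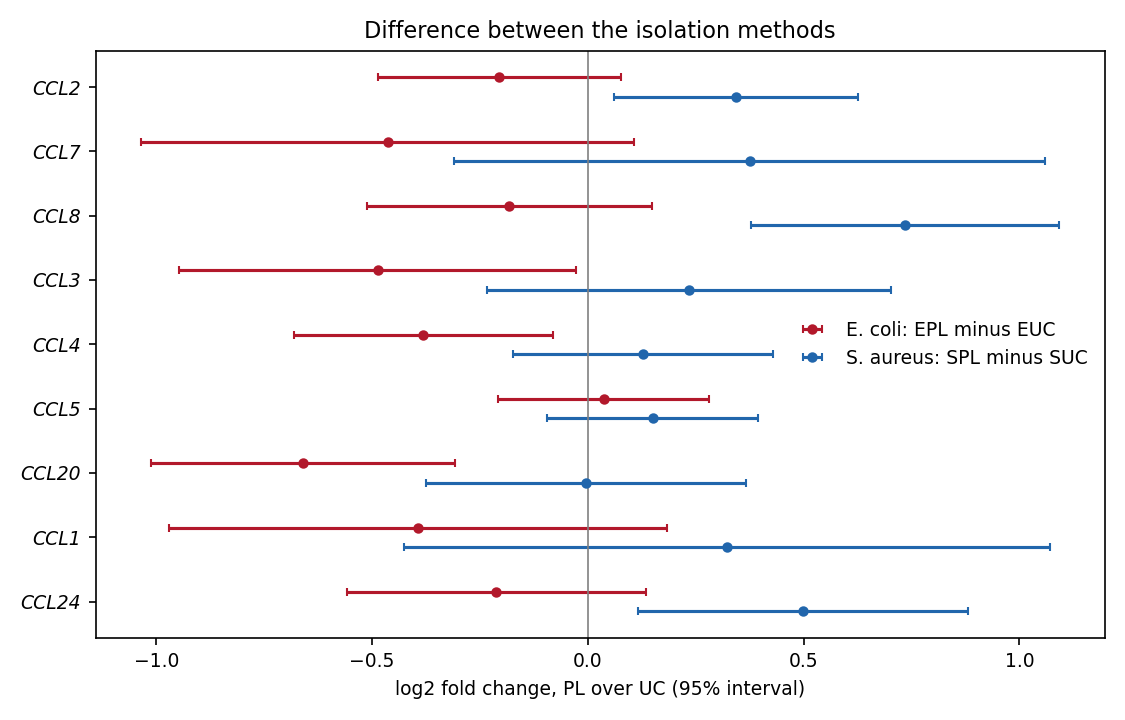
Log2 fold change of PL over UC (horizontal axis) for each chemokine in *E. coli* and *S. aureus* BEVs, with 95% intervals. Points of *E. coli* lie at or left of 0 except CCL5 at 0.04, points of *S. aureus* at or right of 0, and none passed the adjusted p of edgeR after the filter on low counts.

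Genes for several receptors of these ligands were also measured. CCR1, which binds CCL3, CCL5, CCL7 and CCL8, rose in all 4 groups, from 71.1 ± 0.696 CPM in NC to 192 ± 19.6 in EUC and 198 ± 18.8 in EPL, against 153 ± 18.8 in SUC and 191 ± 1.73 in SPL (SD, n = 3). CCR2 stood at 307 ± 10.5 CPM in NC and between 299 ± 9.71 and 315 ± 11.0 in stimulated cells, and was not called.

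ACKR2, a scavenger that takes up inflammatory CC chemokines, fell in EUC, SUC and SPL, from 2.72 ± 0.275 CPM in NC to 1.23 ± 0.378, 1.12 ± 0.102 and 1.31 ± 0.447. In EPL it stood at 1.55 ± 0.225 CPM with an adjusted p of 0.0258 by edgeR. CCR3 was not called, CCR8 had 4 counts in all, and CCR6 and ACKR1 had none.

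Few of the other CC chemokines were expressed. Of 15 genes 5 were tested, and 3 were called higher in EUC and 1 in each other group. CCL19, a ligand of CCR7, rose in all 4 groups, from 3 counts in NC to 3.80 ± 1.44 CPM in EUC and 2.73 ± 1.10 in EPL, against 1.51 ± 0.467 in SUC and 2.02 ± 0.107 in SPL. CCL13, which lies between CCL8 and CCL1 and binds CCR2 and CCR3, was called in EUC from 33 counts against 1 in NC. CCL22, a ligand of CCR4, rose in EUC from 6.19 ± 0.282 to 13.1 ± 1.38 CPM and stood at 12.2 ± 1.04 in EPL, just under the fold threshold at a log2 fold change of 0.98. CCL23 and CCL28 were not called, and CCL11, whose gene lies between CCL7 and CCL8, had no count.

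Of 14 genes for signalling and shut-off of chemokine receptors, all tested, 3 were called higher in EUC and 2 in EPL, against 3 in SUC and 3 in SPL. In the same order 9.43%, 9.38%, 6.82% and 7.76% of all tested genes were called higher. Of the 14, 3, 1, 1 and 1 were called lower, where 5.75%, 5.15%, 3.06% and 3.7% of all tested genes were called lower. Their median log2 fold change lay between 0.15 and 0.34. RGS1 and RGS2, which speed the shut-off of G proteins, rose in all 4 groups, RGS2 from 0.815 ± 0.189 CPM in NC to 8.06 ± 2.44 in EUC and 7.63 ± 0.718 in EPL, against 3.80 ± 0.838 in SUC and 4.58 ± 0.956 in SPL. RGS1 had 1 count in NC and reached 3.68 ± 1.22 CPM in EUC and 1.19 ± 0.393 in SUC. It was the one gene of this list called between the species, at 1.20 on the log2 scale (adjusted p 0.00363 by edgeR). RGS16 rose in EUC, SUC and SPL.

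RGS18 of the same family fell in all 4 groups, from 14.9 ± 1.27 CPM in NC to between 4.55 ± 0.827 in SPL and 5.54 ± 0.0741 in EUC. GRK2, a kinase that desensitizes receptors, and PLCB2, a phospholipase downstream of them, fell in EUC, from 1028 ± 18.6 to 503 ± 15.7 CPM and from 292 ± 7.22 to 131 ± 19.1 CPM. In the other groups GRK2 stood at 532 to 588 CPM and PLCB2 at 156 to 185 CPM on average, short of the 2-fold threshold.

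Of 5 proteases that can trim CC chemokines 4 were tested, and MMP1 and MMP2 rose in all 4 groups, against 6.82% to 9.43% of all tested genes called higher. MMP1 had 2 counts in NC and reached 4.74 ± 0.126 CPM in EUC and 6.44 ± 1.43 in EPL, against 2.33 ± 0.484 in SUC and 3.01 ± 0.569 in SPL. It was called higher with *E. coli* BEVs, at 1.06 on the log2 scale (adjusted p 0.000722 by edgeR). MMP2 rose from 20.4 ± 1.59 CPM in NC to between 43.2 ± 2.84 in EUC and 49.3 ± 0.663 in SPL. DPP4, which clips the amino terminus of several chemokines, stood at 3.39 ± 0.551 CPM in NC and 3.0 to 3.17 CPM in stimulated cells and was not called, nor was MMP14.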

How the data were processed

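Per the labels and the study's methods, the authors aligned reads of NEB libraries to hg38 with HISAT2, and featureCounts is among the tools their processing notes name. They deposited whole-number read counts per gene, without normalization. The sources used here do not give the annotation, the strand setting or the handling of reads that map to several genes.

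The deposited counts were analysed with edgeR 4.0.16 in R 4.3.3, with filterByExpr (17198 of 60286 genes kept), TMM normalization, a quasi-likelihood fit of all 15 libraries and Benjamini-Hochberg adjustment over all tested genes. The thresholds, adjusted p no higher than 0.01 and a 2-fold difference, are those of the study, which used DESeq2. DESeq2 1.42.0 was an alternative here, beside other normalizations, no filter, a replicate block, fits of the compared groups alone, other thresholds and leaving out each library. The steps were tested on simulated counts. Groups came from the labels. CPM used TMM library sizes, RPKM used GENCODE 44 exon unions, and intervals are 95% intervals of the fit. Library totals of 14399421 to 16637345 reads limit the values of genes with few counts. No 2 libraries held identical counts.

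The members, gene lists and tests were chosen with earlier results of these data known. Genes named are the 9 members, the genes of 5 lists (receptors, other CC chemokines, copies, receptor signalling, proteases) that were called or that show a level, marker genes, and for each member with more than 3 counts in NC the 2 genes with the nearest log2 fold changes. Some results of these lists are not reported here.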

Additional observations from a re-analysis of the deposited data

How the results depend on the processing

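All 9 chemokines were called higher than NC in all 4 groups under every alternative run, and 0 were called between isolation methods, although with no filter on low counts CCL20 in EPL against EUC (adjusted p 0.00777), CCL8 in SPL against SUC (0.000457) and CCL8 in the difference of methods between species (0.005) passed edgeR's adjusted p below 2-fold. With no filter, edgeR's quasi-likelihood test gave far smaller adjusted p against NC too, 9.09e-240 for CCL8 in EUC against 6.78e-12 with the filter. The exceptions in calls concern the species. Of the 5 chemokines called between EUC and SUC, 0 remained when the test itself was against a 2-fold change (glmTreat), 1 when the fit held only the compared groups, and 3 to 5 when a library was left out (3 without SUC replicate 2). CCL7 and CCL1 lost the adjusted p there, and CCL20 fell under 2-fold without EUC replicate 3 or SUC replicate 1. Of the 4 called on the mean of both methods, 0 remained with glmTreat, which took the genes called higher and lower in all from 114 and 4 to 4 and 1. There CCL4, whose adjusted p was 0.0144, passed with DESeq2, with no filter and without EUC replicate 1 or SUC replicate 3. Between EPL and SPL, 1 was called without a fold threshold. The alternatives that lost calls held fewer libraries or a stricter null. Those in which CCL4, or a gene between EPL and SPL, passed used DESeq2, no filter, no fold threshold or fewer libraries. The cause was not tested further. Directions turned only in differences near 0. CCL20 in SPL against SUC was 0.0023 with RLE, 0.0049 with upper-quartile normalization, 0.0153 with the replicate block and 0.0026 with DESeq2, and ran from -0.1222 to 0.1013 as libraries were left out. Over the same omissions CCL5 in EPL against EUC ran from -0.1144 to 0.1339, and in EPL against SPL CCL2 ran from -0.0695 to 0.0276 and CCL3 from -0.2121 to 0.0196. CCL3 summed with its copy, an alternative chosen after seeing the data, stood at 0.1327. Over all genes, the calls higher in EUC than in SUC went from 126 to 7 with glmTreat, to 24 with the compared groups alone and to 344 without a fold threshold, and in EPL than in SPL from 18 to 39 with DESeq2, to 38 with no filter and to between 3 and 11 as a library was left out. Whether equal replicate numbers pair the libraries was not settled. Deviations correlated at -0.452 to 0.525 over 30 pairs of equal number (median 0.0219, 7 over 0.1). Over 60 pairs of different number they correlated at -0.484 to 0.488 (median -0.00776, 12 over 0.1). Of 15 libraries 9 were closest to their own number, and the replicate block changed no call of a chemokine. Depth limits the NC values of CCL8 and CCL1, with no count, and CCL7, with 1 count, most. Among stimulated groups it limits CCL1 in SUC most, at 10 to 18 counts per library.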

Other observations

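For the 6 chemokines with more than 3 counts in NC, the genes whose 4 log2 fold changes against NC were nearest were searched among 14517 genes with a mean of at least 1 CPM, by the root mean square of the 4 differences. The 4 comparisons share the NC libraries, so this likeness is a description. CCL2 was nearest to ICAM1, the adhesion molecule that leukocytes bind on inflamed endothelium, at 0.099, with ICAM1 at 7.30 in EUC and 7.26 in EPL, against 7.02 in SUC and 7.18 in SPL. IL4I1, a secreted amino acid oxidase, followed at 0.138.

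CCL3 was nearest to KCNJ2-AS1, an antisense RNA gene (0.086), and then to CD40, the costimulatory receptor (0.172). CCL4 was nearest to MMP9, the gelatinase B gene, at a wider 0.243, with MMP9 at 10.04 in EUC and 8.996 in SUC. Its next gene, ENSG00000285744, was at 0.446. CCL5 was nearest to RESF1 (0.074) and ST3GAL2, a sialyltransferase gene (0.082), at a much smaller rise. CCL20 was nearest to UPB1 (0.172) and to BCL2A1, an anti-apoptotic BCL2 relative (0.25). CCL24 was nearest to TRAF1, an adaptor of TNF receptors (0.059), and to DPYSL3 (0.161), and TRAF1 stood at 4.71 in EUC and 3.09 in SUC.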
